A study of Mus musculus with 6 samples.

Results

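The genes described here mark GABAergic interneurons, the local inhibitory neurons of the brain. There are 8 of them among the 31276 gene symbols counted, chosen by name: Gad1, Gad2, Slc32a1, Pvalb, Lhx6, Dlx1, Dlx2 and Dlx5. All 8 were present in the count table and all 8 passed the filter on low counts that left 16592 genes for testing. RNA from brains of C57BL/6 mice at postnatal day 14 was sequenced in 3 wild-type samples (WT) and in 3 samples of the genotype "PRMT5 olig2cre KO" (KO), and the comparison asks how the brain transcriptome differs between these genotypes. Prmt5 encodes an arginine methyltransferase, and Cre recombinase under Olig2 control acts in cells that express this transcription factor gene or descend from cells that did. Olig2 is best known from the oligodendrocyte lineage, and is also expressed in progenitors of the embryonic ventral forebrain, where many interneurons are born. Xist, a transcript of female cells, was high in WT replicate 2 and in KO replicates 1 and 2 and barely detected in the other libraries. The labels do not give the floxed allele, the Cre line, the sex of the animals or whether each sample is a different animal. The p-values therefore reflect only how far these samples spread, and that spread may be technical in part. Total counts per library ran from 15089140 to 16872925.

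GABA is made from glutamate by glutamate decarboxylase and loaded into synaptic vesicles by a dedicated transporter. Most cortical interneurons are born in the ganglionic eminences of the ventral forebrain under the control of DLX homeodomain proteins, and those from the medial eminence also depend on LHX6. Some of them later become fast-spiking cells that contain the calcium-binding protein parvalbumin. None of these genes is particular to the cortex: Gad1, Gad2 and Slc32a1 are used by GABAergic neurons in all brain regions, DLX genes also by striatal and olfactory bulb neurons, and Pvalb also by Purkinje cells and molecular layer interneurons of the cerebellum.

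In mm10 (GENCODE M21), 6 of the 8 genes lie on chromosome 2. Gad2 occupies chr2:22622205-22693874, Lhx6 chr2:36081953-36105408, Gad1 chr2:70553072-70602014 and Slc32a1 chr2:158610767-158615748. Dlx1 (chr2:71528113-71533981) and Dlx2 (chr2:71543408-71546754) are neighbours on opposite strands with 9426 bases between them. Dlx5 (chr6:6877805-6882085) has its own neighbour, Dlx6, 9236 bases away. Pvalb lies at chr15:78191114-78206400. All are protein-coding. Exons of Dlx1 share 335 bases with the antisense transcript Dlx1as, and exons of Slc32a1 share 697 bases with the antisense gene Gm14205. As the counting is not stated to use strand, reads over these stretches cannot be told apart.

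The stretches in front of the start sites of Dlx2 and Pvalb are shown as examples. The levels of these genes ran in opposite directions over the 6 libraries (Pearson r = -0.72), as described below. Dlx1 (-0.74) and Dlx5 (-0.75) ran against Pvalb in the same way. The stretch of Dlx1 overlapped annotated exons, and none was available for Dlx5. A link between these sequences and the levels was not tested. Each run holds the 250 bases upstream of a RefSeq start site (GRCm38.p6, minus strand, 5′ to 3′), at chr2:71546755-71547004 for Dlx2 and chr15:78206401-78206650 for Pvalb, with each CG dinucleotide in capitals.
Dlx2: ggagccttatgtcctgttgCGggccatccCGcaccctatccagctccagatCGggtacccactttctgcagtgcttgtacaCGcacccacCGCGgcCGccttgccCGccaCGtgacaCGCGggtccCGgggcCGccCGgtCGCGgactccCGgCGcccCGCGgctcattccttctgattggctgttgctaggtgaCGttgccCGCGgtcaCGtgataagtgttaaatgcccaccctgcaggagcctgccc
Pvalb: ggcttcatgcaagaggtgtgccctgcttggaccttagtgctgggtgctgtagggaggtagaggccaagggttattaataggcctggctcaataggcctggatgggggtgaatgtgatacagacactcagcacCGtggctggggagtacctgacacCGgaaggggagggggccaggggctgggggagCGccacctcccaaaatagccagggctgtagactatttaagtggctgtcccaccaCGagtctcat
The Dlx2 stretch held 24 CG dinucleotides and the Pvalb stretch 4, against a median of 6 over 32851 such windows. At least 24 were found in 12% of windows and at least 4 in 62.2%. Pvalb has another RefSeq start site, for which the window at chr15:78204238-78204487 held 23. Of the 8 genes, 7 had an entry in that table.

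No member differed between KO and WT at an adjusted p under 0.05 (Benjamini-Hochberg) in edgeR's quasi-likelihood test, where 1.2% of all tested genes did, 0.241% higher and 0.958% lower in KO. With the replicate number as a block 0 members were called, against 3.41% of genes. The log2 fold changes (KO over WT) of the 8 members were all positive and ran from 0.02 for Lhx6 to 0.40 for Dlx5, with a median of 0.26, against a median of 0.01 and 52.3% positive values over all tested genes. Without KO replicate 2 the members' median was 0.05, and Dlx1 (-0.06), Dlx2 (-0.04) and Lhx6 (-0.00) had negative values. At an unadjusted p under 0.05 there was 1 member, Slc32a1, where 9.67% of tested genes passed, and DESeq2 called 0 members where it called 1.89% of genes. In the same libraries 13 of 14 genes of the oligodendrocyte lineage fell, with a list median of -2.32. Levels are given as CPM, the count scaled to a common library total. Prmt5 itself had 90.8, 90.4 and 91.8 CPM in WT replicates 1 to 3 and 68.2, 68.4 and 81.6 CPM in KO, a log2 fold change of -0.32 with an adjusted p of 0.232 by edgeR and of 0.0379 with the replicate number as a block. In whole tissue, fewer cells of a type and less RNA per cell cannot be told apart.

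**Figure D1:**
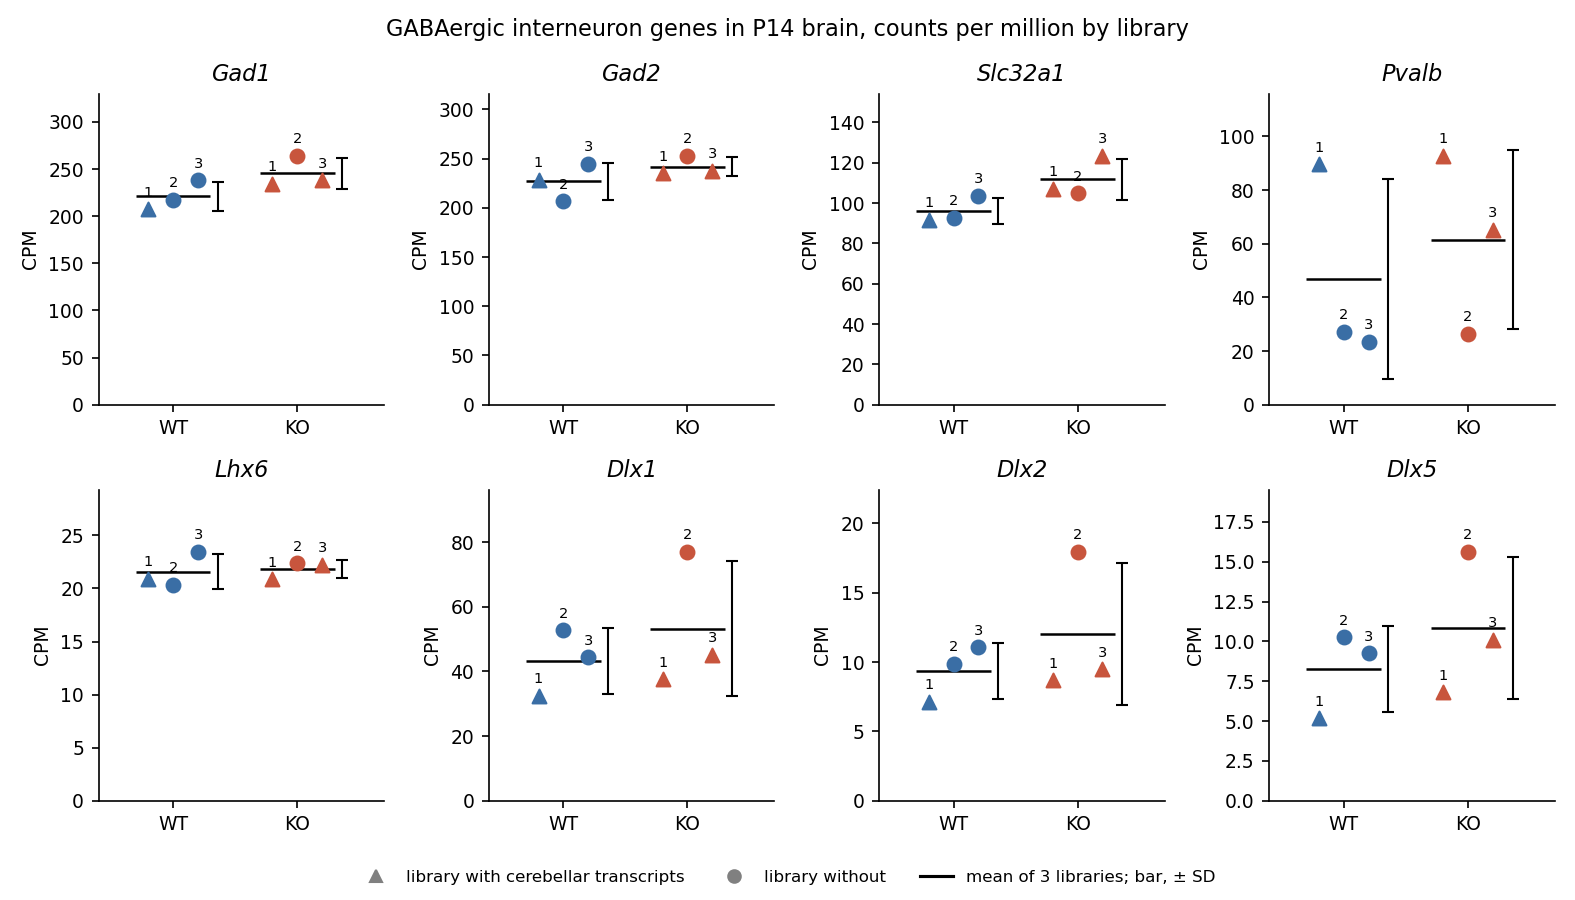
Level of each of the 8 genes in each library (vertical axis, CPM from 0; labels 1 to 3 are replicate numbers), with the mean and SD of 3 libraries per group; triangles are libraries that contain cerebellar transcripts and circles those that do not. Gad1, Gad2, Slc32a1 and Lhx6 vary little, Pvalb is high in the triangles, and KO replicate 2 is the highest library for Dlx1 (77.1 CPM), Dlx2 (18.0) and Dlx5 (15.6).

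The enzymes of GABA synthesis were the steadiest members together with Lhx6. Gad1, which encodes the larger form of glutamate decarboxylase, had 207.6, 217.3 and 238.0 CPM in WT and 234.4, 264.2 and 238.1 CPM in KO, in replicate order as throughout. The groups overlapped, although KO was higher in each same-numbered pair, as it was for 19.3% of tested genes. The log2 fold change was 0.15 (SE 0.0955, 95% interval -0.06 to 0.36), with an adjusted p of 0.640 by edgeR. Gad2, which encodes the smaller form, found at synaptic terminals, stood at 228.8, 206.7 and 244.8 CPM in WT and 235.4, 253.0 and 237.5 CPM in KO. Here the highest and the lowest WT library lay on either side of KO replicates 1 and 3, and the log2 fold change was 0.09 (SE 0.0949, interval -0.12 to 0.30, adjusted p = 0.795 by edgeR). The interval of Gad2 therefore reaches from 0.923-fold to 1.23-fold of WT, and that of Gad1 from 0.960-fold to 1.29-fold. The ratio of Gad1 to Gad2 counts was 0.977 ± 0.0719 in WT and 1.01 ± 0.0263 in KO (SD, n = 3).

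Slc32a1, the vesicular GABA transporter gene, was the member closest to a call. It stood at 91.8, 92.7 and 103.7 CPM in WT and at 107.2, 104.8 and 123.5 CPM in KO. All KO libraries lay above all WT libraries and the same arrangement was found for 8.02% of tested genes. The log2 fold change was 0.22 (SE 0.0963, interval 0.01 to 0.43), or 1.16-fold, with an unadjusted p of 0.0441 and an adjusted p of 0.496 by edgeR. With the replicate number as a block the adjusted p was 0.167. The count of Slc32a1 relative to Gad1 overlapped between groups (0.435 ± 0.00793 in WT, 0.458 ± 0.0610 in KO, SD, n = 3).

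Around these genes, the list of 12 genes of GABA synthesis, packaging and clearance had 1 member that rose and 0 that fell, with a median log2 fold change of 0.01. The gene that rose was Slc6a13, which encodes a GABA and taurine transporter (GAT2) of meningeal fibroblasts. Its mean was 7.74 ± 1.14 CPM in WT and 14.6 ± 2.06 in KO (SD, n = 3), with a log2 fold change of 0.91 (SE 0.173, adjusted p = 0.0300 by edgeR). Leaving out any WT replicate, KO replicate 1 or KO replicate 3 ended that call, at adjusted p of 0.0540 to 0.175, whereas it held without KO replicate 2 (adjusted p = 0.0332). Slc6a13 is also on the list of 8 meningeal fibroblast genes, of which 5 rose, and the summed level of that list was 242.2 to 282.4 CPM in WT and 364.3 to 590.8 CPM in KO. The part of these cells in the value of Slc6a13 was not tested. Slc12a2, named after its values were seen, encodes the chloride importer NKCC1, which contributes to the chloride gradient that GABA acts on. It had values of 88.1, 67.9 and 65.6 CPM in WT and 49.6, 48.9 and 33.6 CPM in KO (log2 fold change -0.75, SE 0.160). Its adjusted p by edgeR was 0.0568 with all libraries and 5.66e-05 with the replicate block. Leaving out each library in turn gave adjusted p from 0.0382, without KO replicate 1, to 0.173. Slc12a5, on the same list, had a log2 fold change of -0.09 (SE 0.0980, adjusted p = 0.820 by edgeR). Genes of the oligodendrocyte lineage fell in the same libraries, and the part of these cells in the value of Slc12a2 was not tested.

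Pvalb differed among libraries more than any other member, by 3.96-fold from the lowest to the highest. It stood at 89.7 CPM in WT replicate 1, 27.2 in WT replicate 2 and 23.4 in WT replicate 3, and at 92.8, 26.5 and 65.1 CPM in KO replicates 1 to 3. The high libraries were WT replicate 1 and KO replicates 1 and 3, and each of these lay above each of the other 3, as for 6.44% of tested genes. The KO over WT log2 fold change was 0.39 with an SE of 0.500, an interval from -0.71 to 1.5 and an adjusted p of 0.838 by edgeR, an interval that spans both lower and higher levels.

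The same 3 libraries held transcripts of the cerebellum. The GABA-A receptor subunit gene Gabra6, a marker of granule cells in the cerebellum, had 63.8 CPM in WT replicate 1, 80.0 in KO replicate 1 and 22.1 in KO replicate 3, and 0 in the rest. Pcp2, a Purkinje cell gene, stood at 59.8, 66.0 and 39.3 CPM in the same order and at 2.89 to 3.02 CPM in the others. The 16 cerebellar GABAergic neuron genes summed to 1238, 1335 and 900.6 CPM in the 3 libraries with cerebellar transcripts and to 608.3 to 642.1 CPM in those without, where Slc6a5 was at 0 in all of them. This sum includes the members Pvalb and Gad1 themselves, so it is not separate from the Pvalb values. It also includes Cbln1, which is a gene of granule cells. Between libraries with and without cerebellar transcripts, with genotype in the model, Pvalb was higher by 1.71 on the log2 scale (SE 0.145, adjusted p = 0.000217 by edgeR), a comparison in which 0.621% of tested genes were higher. The KO over WT log2 fold change of Pvalb was 0.21 (SE 0.191) with Gabra6 CPM as a continuous term and 0.48 (SE 0.183) with the replicate block. With a term for cerebellar transcripts, as present or absent, it was -0.07 (SE 0.143). Among libraries with these transcripts it was -0.19 (KO replicates 1 and 3 against WT replicate 1), and among those without it was 0.07 (KO replicate 2 against WT replicates 2 and 3). Without WT replicate 1, which leaves cerebellar transcripts in KO libraries alone, it was 1.28 with an adjusted p of 0.250.

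Genes of parvalbumin cells took both directions, with 7 positive and 11 negative log2 fold changes. Of 18 tested genes linked to fast-spiking cells 0 were called by edgeR and 0 by DESeq2, 1 passed an unadjusted p under 0.05, and the list median was -0.02. That gene was Kcnc2, which encodes a fast delayed-rectifier potassium channel (Kv3.2). It stood at 64.9, 74.0 and 72.3 CPM in WT and at 56.0, 55.6 and 54.1 CPM in KO. All KO libraries lay below all WT libraries, as for 7.99% of tested genes (log2 fold change -0.35, SE 0.0891, adjusted p = 0.137 by edgeR and 0.0316 with the replicate block). Pthlh, a hormone-related peptide gene of these cells, came next by p, at 0.46 on the log2 scale (SE 0.235) with an adjusted p of 0.563 by edgeR.

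Lhx6, the transcription factor gene of interneurons from the medial ganglionic eminence, had the narrowest range of all members, with 1.15-fold between the highest and the lowest library. Its values were 20.9, 20.3 and 23.5 CPM in WT and 20.9, 22.4 and 22.2 CPM in KO. The KO libraries all lay within the WT range. With a log2 fold change of 0.02 (SE 0.119), the 95% interval ran from 0.842-fold to 1.21-fold (adjusted p = 0.976 by edgeR). Lhx6 counts per Gad1 count were 0.0977 ± 0.00367 in WT and 0.0890 ± 0.00436 in KO (SD, n = 3), without overlap. An exact permutation test of this ratio gave a two-sided p of 0.1, the smallest that 3 against 3 allows, and 0.3 after adjustment over the 6 ratios computed.

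The DLX genes, which encode homeodomain activators of interneuron fate, varied together. Dlx1 stood at 32.5, 52.8 and 44.4 CPM in WT and at 37.6, 77.1 and 45.1 CPM in KO. Dlx2 had 7.12, 9.87 and 11.1 CPM in WT and 8.70, 18.0 and 9.47 CPM in KO. For Dlx5 the values were 5.18, 10.3 and 9.27 CPM in WT and 6.81, 15.6 and 10.1 CPM in KO. In each of the 3 genes WT replicate 1 was the lowest library, KO replicate 1 the next and KO replicate 2 the highest, so the groups overlapped. The ratio of Dlx1 to Dlx2 counts had a coefficient of variation of 10.3% over the 6 libraries, where the Dlx1 level had 32.6%. Dlx5, the least counted member, had 83 counts in WT replicate 1 (95% exact Poisson interval 66.1 to 102.9, for counting error only) and 248 in KO replicate 2 (218.1 to 280.9), so that difference lay beyond counting error.

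For KO over WT the log2 fold change was 0.30 for Dlx1 (SE 0.244, interval -0.24 to 0.84), 0.36 for Dlx2 (SE 0.275, interval -0.24 to 0.97) and 0.40 for Dlx5 (SE 0.311, interval -0.29 to 1.08). Their adjusted p by edgeR were 0.731, 0.713 and 0.722. Without KO replicate 2 they were -0.06, -0.04 and 0.04, with adjusted p from 0.954 to 0.983 and 0.807% of genes called. That choice leaves KO libraries that all hold cerebellar transcripts against WT libraries of which 1 of 3 does, so the genotype and the cerebellar transcripts are partly confounded in it. Between libraries with and without cerebellar transcripts, with genotype in the model, Dlx1 was lower by 0.74 on the log2 scale (a log2 difference of -0.74, SE 0.125, adjusted p = 0.0179 by edgeR), where 0.108% of tested genes were lower. Dlx2 (-0.78, SE 0.170, adjusted p = 0.0721) and Dlx5 (-0.90, SE 0.195, adjusted p = 0.0699) did not pass that test.

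Among libraries without cerebellar transcripts, the log2 ratio of KO replicate 2 to WT replicates 2 and 3 was 0.67 for Dlx1, 0.78 for Dlx2 and 0.68 for Dlx5. EdgeR called these 3 members there, where 7.37% of tested genes were called, 3.26% higher in KO. This KO arm is 1 library, with 1 residual degree of freedom from the WT pair, so these calls describe that library and not the genotype. Among libraries that hold cerebellar transcripts, from which KO replicate 2 is absent, the values were 0.34, 0.34 and 0.70 for KO replicates 1 and 3 against WT replicate 1. Here the WT arm is 1 library, the lowest of all 6 for these genes, and 0 members were called, with 0.942% of tested genes called. With a term for cerebellar transcripts the log2 fold changes were 0.51, 0.58 and 0.69 and the adjusted p 0.0851, 0.187 and 0.159 by edgeR, with 0 members called and 1.38% of genes. With that term and the replicate block together, Dlx1 was called (0.39, adjusted p = 0.0285), where 3.22% of genes were. With Gabra6 CPM as a continuous term 0 members were called, where 2.03% of genes were.

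KO replicate 2, the highest library for 19.1% of tested genes, also had the highest level of several genes of olfactory bulb output neurons. Cdhr1, a cadherin-related gene of these cells, stood at 43.3 CPM there and at 10.6 to 15.1 CPM in the other libraries. Doc2g stood at 17.1 CPM there and at 3.49 to 5.02 CPM elsewhere. Cdhr1 and Doc2g were named outside the rule for naming genes. Eomes, another gene of these cells, did not share this order: its level in KO replicate 2, 9.58 CPM, was below that in KO replicate 1. The list of 18 olfactory bulb and migrating neuroblast genes, taken whole, summed to 2564 CPM in KO replicate 2, within the range of 2349 to 2992 CPM of the other libraries, and no gene of it was at 0 in any library. Of its 17 tested genes 0 were called by edgeR or DESeq2, and the list median was 0.30. By edgeR 5 of the 17 had an unadjusted p under 0.05, against 9.67% of all tested genes. With the replicate block, where 3.41% of all tested genes were called, 5 of the list rose. Among them were Sp8 (0.94, adjusted p = 0.0374) and Eomes (1.54, adjusted p = 0.00111). With no block, Eomes stood at 1.37 with all libraries (adjusted p = 0.328 by edgeR). Without WT replicate 1, which leaves cerebellar transcripts in KO libraries alone, it was 2.32 (adjusted p = 0.0115). WT replicate 1 had the highest Eomes level of the WT libraries, 6.56 CPM. The adjusted p of Eomes ran from 0.0115 to 0.741 by edgeR when each library was left out in turn. The 15 striatal projection neuron genes summed to 2068 CPM in KO replicate 2, above the 1446 to 1823 CPM of the other libraries. The part of these cells in the DLX values was not tested.

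**Figure D2:**
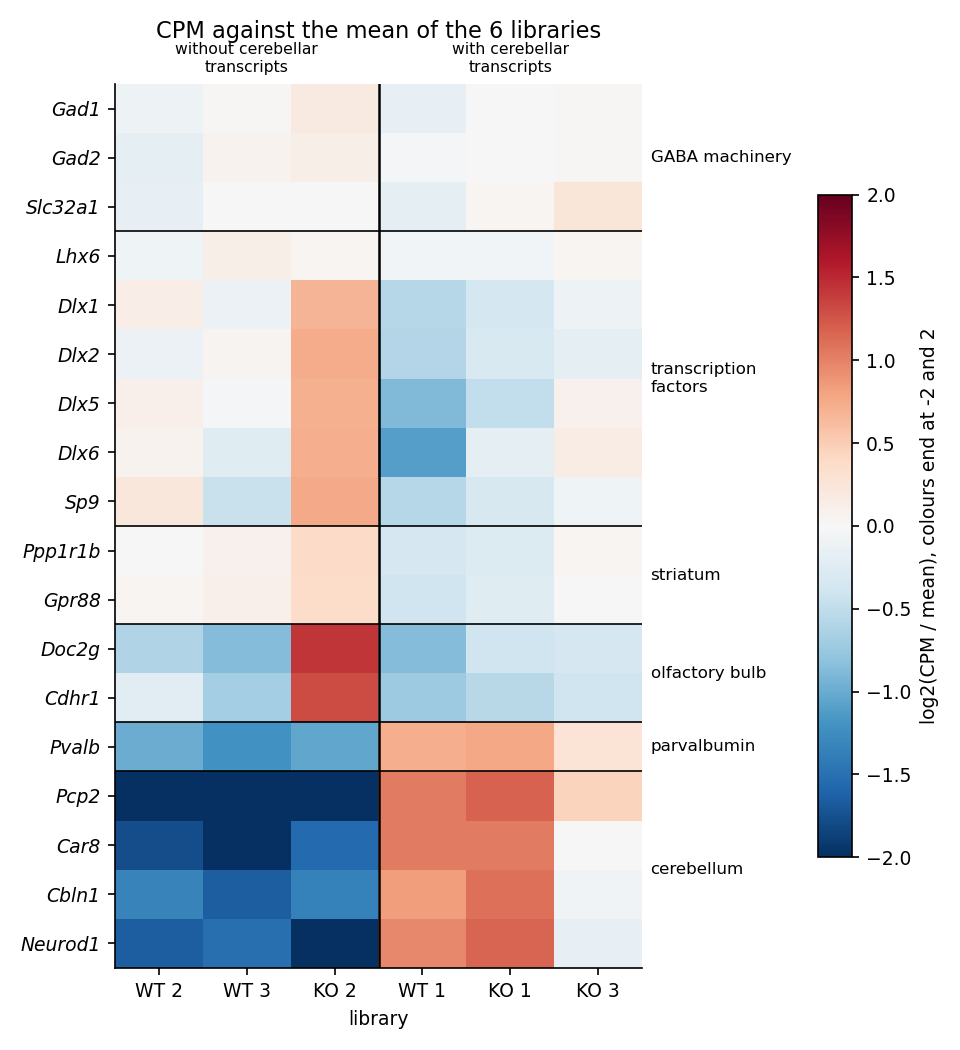
Colour gives the log2 of CPM over the mean of the 6 libraries (horizontal axis, libraries without cerebellar transcripts on the left and with them on the right) for members and for genes of striatum, olfactory bulb and cerebellum. Pvalb is high where Pcp2 and Car8 are high, and the DLX genes are highest in KO replicate 2, where Doc2g (17.1 CPM) and Cdhr1 (43.3 CPM) are highest too. Doc2g and Cdhr1 were picked from a longer olfactory bulb list, in which other genes, such as Eomes, Dcx and Pax6, are not highest there.

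Of the neighbouring transcripts of the DLX loci, Dlx1as, Dlx6 and Dlx6os1 were highest in KO replicate 2. Dlx1as, antisense to Dlx1, stood at 17.7, 29.9 and 29.8 CPM in WT and at 21.5, 42.6 and 27.3 CPM in KO. Dlx6, the homeobox neighbour of Dlx5, stood at 3.0, 6.76 and 5.48 CPM in WT and at 5.66, 10.6 and 7.18 CPM in KO (log2 fold change 0.63, SE 0.310, adjusted p = 0.552 by edgeR). Dlx6os1, a non-coding transcript of the Dlx6 locus, was lowest in KO replicate 3 (9.66 CPM) and not in WT replicate 1 (11.2 CPM). Dlx5 counts per Dlx6 count were 1.65 ± 0.112 in WT and 1.36 ± 0.138 in KO (SD, n = 3), without overlap, at an exact permutation p of 0.1 and 0.3 after adjustment over the 6 ratios.

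Of 23 tested transcription factor genes of interneurons, 0 were called by edgeR with all libraries and 1 by DESeq2. Over all tested genes these shares were 1.2% and 1.89%. By edgeR 6 of the 23 had an unadjusted p under 0.05, against 9.67% of all tested genes. The median log2 fold change of the list was 0.10, or -0.00 without KO replicate 2. Nkx2-1, the specifier of the medial ganglionic eminence, had the smallest p. It stood at 1.12, 1.28 and 1.44 CPM in WT and 2.31, 3.53 and 3.05 CPM in KO (log2 fold change 1.2, SE 0.305), with an adjusted p of 0.137 by edgeR and 0.0535 with the replicate block. Sox6, which acts after Lhx6 in interneurons and is also abundant in oligodendrocyte precursors, stood at 27.9, 28.1 and 23.3 CPM in WT and at 20.9, 17.5 and 15.1 CPM in KO. Its log2 fold change was -0.57 (SE 0.148), with an adjusted p of 0.151 by edgeR, 0.00963 with the replicate block and 0.0411 in DESeq2. Leaving out each library in turn gave adjusted p from 0.0474, without KO replicate 1, to 0.491 by edgeR. Pdgfra, a marker of oligodendrocyte precursors, fell in the same libraries (log2 fold change -0.80), and the part of these cells in the value of Sox6 was not tested.

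Among markers of interneuron subclasses, 21 were tested. Of these, 0 were called by edgeR and 1 by DESeq2, where 1.2% and 1.89% of all tested genes were. An unadjusted p under 0.05 was found for 1 of the 21, against 9.67% of all tested genes, and the list median was 0.17. Calb2, the calretinin gene, stood at 181.9, 111.4 and 97.8 CPM in WT and at 205.0, 188.0 and 210.6 CPM in KO. All KO libraries lay above all WT libraries, as for 8.02% of tested genes. The log2 fold change of Calb2 was 0.63 (SE 0.190), with an adjusted p of 0.254 by edgeR, 0.00160 with the replicate block and 0.0297 in DESeq2. Without WT replicate 1, which leaves cerebellar transcripts in KO libraries alone, it was 0.94 (adjusted p = 0.00266). Among the libraries with cerebellar transcripts it was 0.19. Leaving out each library in turn gave adjusted p from 0.00266 to 0.711 by edgeR. Calb2 is also expressed by cerebellar granule cells, olfactory bulb interneurons and thalamic neurons. Crh, a peptide gene, came next by p, at 0.51 on the log2 scale (SE 0.248) with an adjusted p of 0.542. Sst, the somatostatin gene of the other large Lhx6 class, stood at 189.6, 248.6 and 223.5 CPM in WT and at 201.1, 279.0 and 263.1 CPM in KO, with overlapping groups (log2 fold change 0.17, SE 0.138, adjusted p = 0.736 by edgeR). Sst was named after its values were seen.

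**Figure D3:**
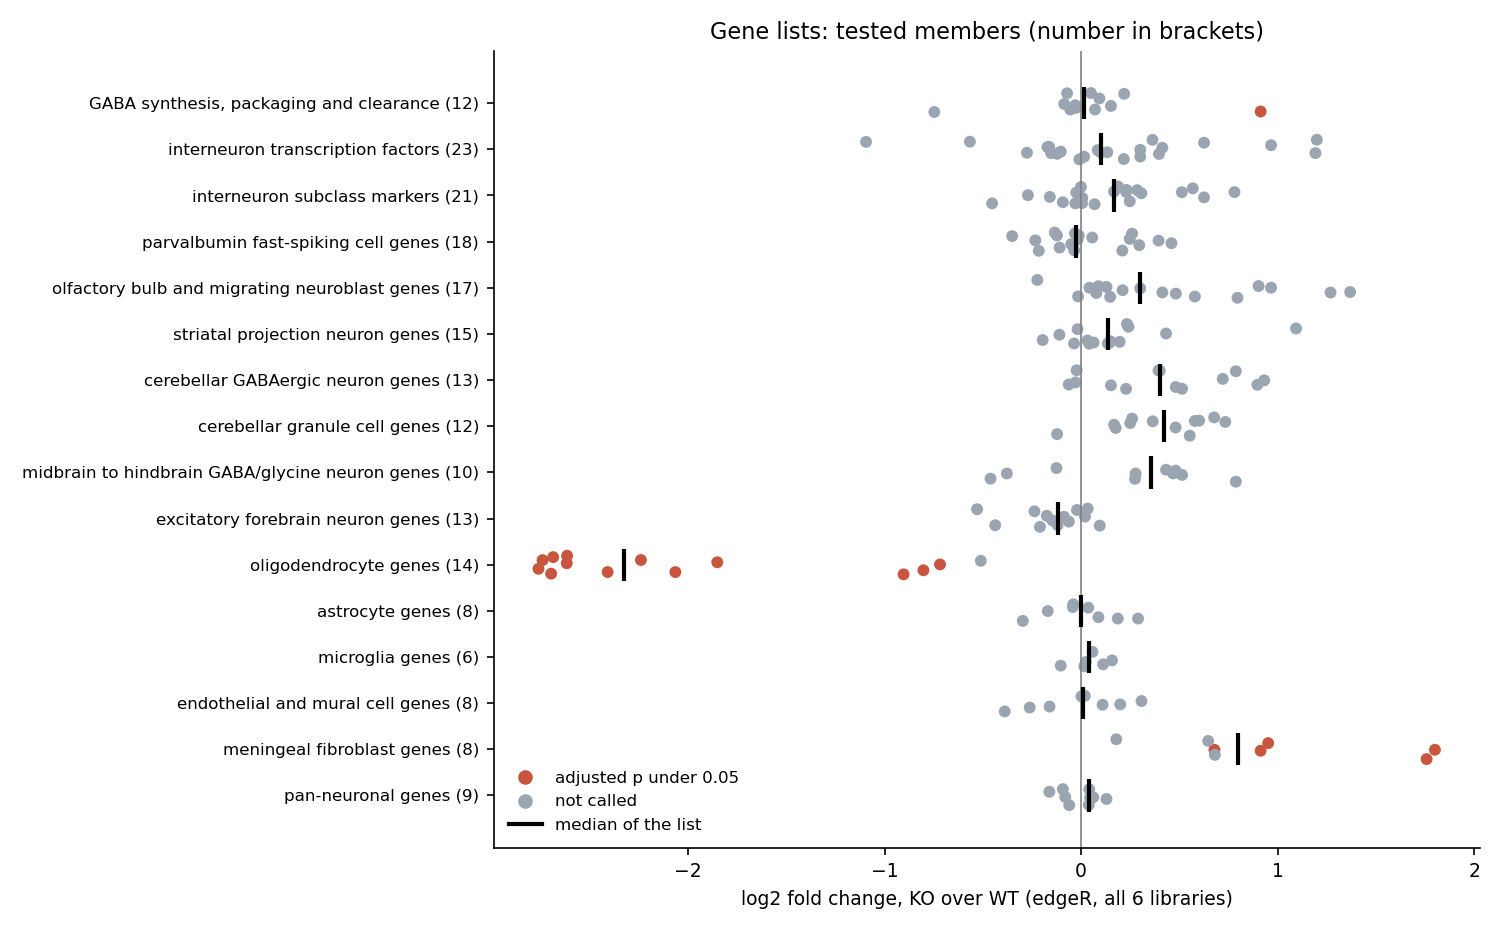
Log2 fold change, KO over WT, of every tested gene of 16 lists (rows; number of tested genes in brackets), with calls at an adjusted p under 0.05 in red and the list median as a black bar. The lists of neuronal genes have medians from -0.12 to 0.42 and 1 call, Slc6a13, whereas oligodendrocyte genes have a median of -2.32 and meningeal genes of 0.80.

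Lists of other cell types are given for comparison. Excitatory forebrain genes had a median of -0.12, with 0 of 13 called by edgeR. DESeq2 called 2, among them Cux2, where it called 1.89% of all tested genes. Cux2, a transcription factor gene of upper-layer cortical neurons, had a log2 fold change of -0.44 (SE 0.106, adjusted p = 0.11 by edgeR and 0.0131 with the block). For Cux2, leaving out each library in turn gave adjusted p from 0.0319, without KO replicate 1, to 0.472. Among striatal projection neuron genes 0 of 15 were called by edgeR with all libraries and 0 by DESeq2. With the replicate block 1 of these genes, Isl1, was called, against 3.41% of all tested genes. The median of the striatal list was 0.14, but -0.04 without KO replicate 2 and 0.26 with the cerebellum term. Isl1 (1.09, SE 0.295) and Six3 (0.43, SE 0.160) led by p. Isl1 had an adjusted p by edgeR of 0.170 with all libraries and 0.0174 with the block. For Isl1, leaving out each library in turn gave adjusted p from 0.0128, without KO replicate 1, to 0.528. Pan-neuronal genes had 0 of 9 called and a median of 0.04. Astrocyte genes had 0 of 8 called and a median of -0.00, microglia genes 0 of 6 and 0.04, and endothelial and mural cell genes 0 of 8 and 0.01.

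Per kilobase of exon in GENCODE M21, the levels in WT fell into 2 tiers. The upper tier held Pvalb at 44.9 ± 35.8 CPM per kilobase, Gad2 at 38.6 ± 3.25, Slc32a1 at 34.3 ± 2.36 and Gad1 at 28.9 ± 2.03 (SD, n = 3). The lower tier held Dlx1 at 8.01 ± 1.88, Lhx6 at 4.49 ± 0.346, Dlx5 at 3.64 ± 1.19 and Dlx2 at 3.28 ± 0.709. The place of Pvalb came from WT replicate 1, the WT library with cerebellar transcripts, at 86.2 CPM per kilobase. In WT replicates 2 and 3 Pvalb had 26.1 and 22.5, below Gad1 at 28.4 and 31.2. In the upper tier the mean of Pvalb did not differ from its neighbour's beyond its spread, nor did that of Gad2 from Slc32a1. Library by library, Gad2 lay above Slc32a1 throughout WT (38.9 against 32.8, 35.2 against 33.1 and 41.7 against 37.1). It lay below Slc32a1 in KO replicate 3 (40.4 against 44.2). In the lower tier, Lhx6 did not differ from Dlx5 or Dlx5 from Dlx2 beyond their spread. In KO the order was the same except that Dlx5 (4.79 ± 1.97) stood above Lhx6 (4.54 ± 0.174), within their spread.

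**Figure D4:**
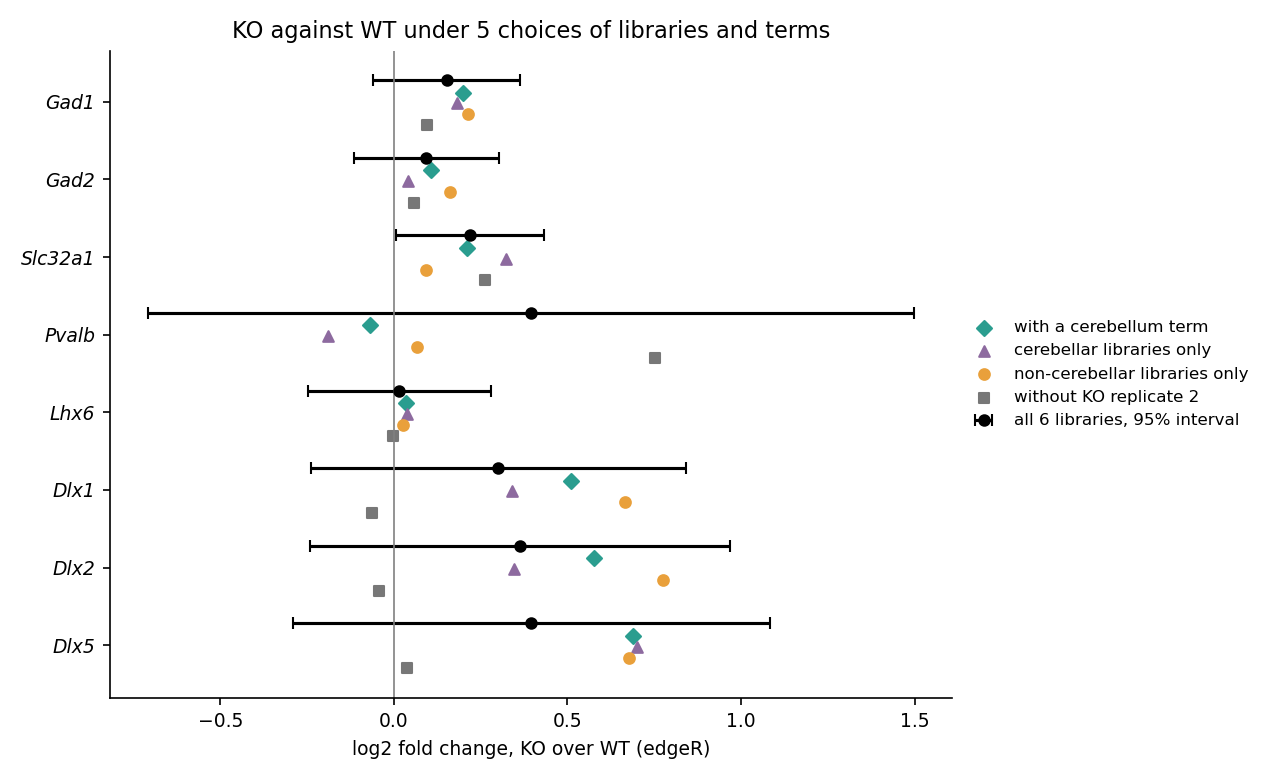
Log2 fold change, KO over WT (horizontal axis), of each gene with all 6 libraries (black, with the 95% interval) and under 4 other choices of libraries or terms, as listed in the legend. Gad1, Gad2, Slc32a1 and Lhx6 stay between -0.00 and 0.32, whereas Pvalb and the DLX genes move with the libraries used.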

How the data were processed

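Polyadenylated RNA from mouse brain was sequenced in 3 WT and 3 KO samples. The submitters' processing notes list mm10 as the genome build and name STAR 2.3.0e, Trimmomatic 0.32, FastQC 0.11.2, DESeq2 and featureCounts 1.5.0. The authors deposited raw counts per gene and a normalized signal, in which each library's counts are scaled by a factor of its own. For strand and for multi-mapping reads, the counting options are not given in the sources used here.

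KO was compared with WT on the deposited counts in R 4.3.3 with edgeR 4.0.16 (filterByExpr, TMM scaling, glmQLFit, glmQLFTest, 4 residual degrees of freedom), with Benjamini-Hochberg (BH) adjustment over the 16592 tested genes and calls at an adjusted p under 0.05. Limma 3.58.1 and DESeq2 1.42.0 were alternatives. The edgeR script was tested on simulated data. CPM were computed on TMM-scaled totals, 95% intervals from the fold change and its SE with the test's degrees of freedom, and exonic lengths from GENCODE M21. No library was a duplicate of another (pairs within a group differed by 6.75 to 27.4 times the chi-square of counting noise). Libraries with Gabra6 above 5 CPM were taken as holding cerebellar transcripts. The sex term used below separates libraries with Xist above 5 CPM from the others. Xist stood at 0.250, 509.1 and 0.241 CPM in WT and at 634.0, 603.3 and 0.254 CPM in KO, so this term was not balanced between the groups.

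Replicate numbers were taken as pairs because same-numbered samples departed together from their groups' averages (r = 0.351, 0.334 and 0.177), above a limit of 0.1. WT replicate 3 with KO replicate 2, which do not share a number, also passed that limit (r = 0.1002). The pairing comes from the data, not from the labels, so tests with the block are not independent of that choice. Cerebellar transcripts were in both libraries of pair 1, in neither of pair 2 and in the KO library alone of pair 3. The members and lists were chosen with earlier results of these data known. All 201 list genes were found, 1 by an older symbol. Genes were named by rule: every member, the called genes of each list or else the 2 with the smallest p, and the 5 genes most like each of 3 member profiles. Some genes were named outside this rule, among them Doc2g, Cdhr1, Pcp2, the neighbouring transcripts of the DLX loci and those marked as named after their values were seen. The lists cover GABA handling, interneuron transcription factors, subclasses and parvalbumin cells, neurons of the olfactory bulb, striatum, cerebellum, midbrain to hindbrain and excitatory forebrain, and glial, vascular, meningeal and pan-neuronal genes; some genes that the rule took from the lists are not reported here.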

Additional observations from a re-analysis of the deposited data

How the results depend on the processing

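With 24 alternatives, of which the continuous Gabra6 term was added after the data were seen, Gad1, Gad2, Slc32a1 and Dlx5 kept a positive log2 fold change in all. The count of members called was 0 in 22 of them. It was 1 with the cerebellum term and replicate block together (Dlx1, 0.39) and 3 in the libraries without cerebellar transcripts alone (Dlx1, 0.67; Dlx2, 0.78; Dlx5, 0.68), where KO is 1 library. With the replicate block alone 0 members were called, where 3.41% of genes were. Pvalb had a negative value with the cerebellum term (-0.068) and in the libraries with cerebellar transcripts (-0.19). Leaving out each library in turn gave -0.031 to 1.28 for Pvalb, -0.028 to 0.076 for Lhx6, -0.063 to 0.50 for Dlx1 and -0.043 to 0.55 for Dlx2. Over all tested genes 199 were called. DESeq2 called 315, the replicate block 566, the cerebellum term with the block 535, the libraries without cerebellar transcripts 1254, the sex term 129, length-adjusted offsets with the block 502 and the Gabra6 term 336. Leaving out each library gave 100 to 305, with 126, 110 and 100 without WT replicate 1, 2 or 3 and 305 and 132 without KO replicate 1 or 3. The cause of these differences was not tested. Depth limits Dlx5 most, with a counting error of 11.0% at 83 counts.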

Other observations

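Of 13851 genes (mean level 1 CPM or more) compared with the mean profile of Lhx6, Dlx1, Dlx2 and Dlx5 over the 6 libraries, the 5 most alike were Calcoco1 (Pearson r = 0.996), Ppp1r1b (0.991), Dok1 (0.990), Acot2 (0.989) and Rpl27a (0.984). Ppp1r1b encodes DARPP-32, the dopamine-regulated phosphatase inhibitor of striatal projection neurons. It stood at 214.1, 269.1 and 288.2 CPM in WT and at 225.3, 352.0 and 278.0 CPM in KO. The genes most like Pvalb, among 13854, were Ngly1 (0.999), Sla (0.999), Barhl2 (0.997), Mybpc3 (0.996) and Gabra6 (0.995). Barhl2, a homeobox gene on the cerebellar granule cell list, stood at 11.0, 9.36 and 5.08 CPM in the libraries with cerebellar transcripts and at 0.722 to 1.08 CPM in the others. For the mean of Gad1, Gad2 and Slc32a1 they were Prodh (0.986), Pold3 (0.984), Strada (0.983), Fam173b (0.977) and Psme2 (0.976). Prodh encodes proline dehydrogenase, which feeds carbon from proline towards glutamate, and ran from 12.8 to 19.9 CPM in WT and from 19.1 to 26.9 CPM in KO. These are the highest of many correlations over 6 libraries, and they carry no test. The part of regional content in them was not tested.

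Glycinergic and other GABAergic genes of midbrain to hindbrain had 0 of 10 tested genes called, and their median was 0.35 on the log2 scale, or -0.01 with the cerebellum term. Slc6a5, the glycine transporter gene of inhibitory hindbrain and cerebellar neurons, was not tested; it stood at 6.06 CPM in WT replicate 1, 4.62 in KO replicate 1 and 0.254 in KO replicate 3, and at 0 in the others. Of the cerebellar GABAergic list 0 of 13 tested genes were called (median 0.40, and -0.05 with the cerebellum term). Of the 12 cerebellar granule cell genes 0 were called with all libraries, with medians of 0.42 and -0.26. With the replicate block, where 3.41% of all tested genes were called, 3 granule cell genes were called higher in KO. These were Zic1 (adjusted p = 0.000724), Pax6 (0.00811) and Zic2 (0.0149), named after their values were seen.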
